A study of Mus musculus with 2 samples.

Results

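The 10 microRNA genes described here were Mir200a, Mir200b, Mir200c, Mir141, Mir429, Mir205, Mir203, Mir183, Mir96 and Mir182, chosen by name from 2202 annotated microRNA genes. They make up the miR-200 family, the skin microRNAs miR-203 and miR-205, and the miR-183 cluster. Small RNA of under 30 bases was sequenced from whole heart of female B6CASTF1/J mice, an F1 hybrid strain, with no treatment named. The age field gives 14 days, whereas another label writes PND14 followed by months; the age field was used. There was 1 group of 2 biological replicates, which share strain, sex, age and tissue, and there was no other condition. Replicate 1 is described in its label as 3 females and replicate 2 as a lone female, and a pool is neither stated nor denied. The tissue is a mixture of cell types, and more cells of a type and more RNA per cell cannot be told apart in it.

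MicroRNAs repress messenger RNAs that pair with their seed, bases 2 to 8 from the 5′ end of the mature strand. The miR-200 family is known from epithelia, where it represses the transcription factors Zeb1 and Zeb2 and so keeps up E-cadherin, and it is lost in the change from epithelial to mesenchymal cells. miR-203 and miR-205 are known from skin and other stratified epithelia, and the miR-183 cluster from hair cells of the inner ear, photoreceptors and other sensory cells. Heart muscle is not an epithelium, and the cells of the heart that these reads came from cannot be named from whole tissue.

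The mature strands are shown because the seed decides which genes of the miR-200 family count together. All 10 matched a mature entry of RefSeq (build GRCm38.p6), and the arm usually described as the active one is printed 5′ to 3′ with the seed in capitals. The deposited counts are per hairpin gene, so reads of the printed arm and of the opposite arm cannot be told apart.
miR-200b-3p: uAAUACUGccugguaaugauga
miR-200c-3p: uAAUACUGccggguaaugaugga
miR-429-3p: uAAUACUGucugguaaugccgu
miR-200a-3p: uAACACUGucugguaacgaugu
miR-141-3p: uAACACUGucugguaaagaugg
miR-183-5p: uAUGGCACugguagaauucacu
miR-96-5p: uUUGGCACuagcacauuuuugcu
miR-182-5p: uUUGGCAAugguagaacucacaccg
miR-203-3p: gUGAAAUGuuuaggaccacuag
miR-205-5p: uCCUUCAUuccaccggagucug

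The 5 members of the miR-200 family carry 2 seeds that differ by U4C (positions counted from the 5′ end, miR-200b-3p first), and each seed has a gene at each of the 2 loci of the family. miR-200b-3p and miR-200c-3p differ at 2 of 22 compared positions (U11G and A22G), and miR-200a-3p and miR-141-3p also at 2 of 22 (C17A and U22G). No mature entry outside the members has either seed. In the miR-183 cluster the seeds of miR-183-5p and miR-96-5p differ by A2U and those of miR-96-5p and miR-182-5p by C8A. miR-96-5p shares its seed with miR-1271-5p. None of the 10 hairpins shares a stretch of 20 bases with another annotated hairpin. The longest stretch shared with any other hairpin is the 17 bases common to Mir141 and Mir200a, so none was marked uncertain for a near-identical copy. A shared run of 20 bases does not catch mature strands that differ at inner positions, as miR-200b-3p and miR-200c-3p do. Copies elsewhere in the genome were not looked for.

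On mm10 the members lie at 5 loci. Mir429 (chromosome 4, 156053905 to 156053987), Mir200a (156054896 to 156054985) and Mir200b (156055681 to 156055750) lie within 1846 bases on the minus strand. All 3 are in an intron of Ttll10, a gene of the tubulin tyrosine ligase-like family. In the noncoding transcript Gm13648, Mir200a and Mir200b are in an intron and Mir429 overlaps an exon. Mir141 (chromosome 6, 124717914 to 124717985) and Mir200c (124718322 to 124718390) are 336 bases apart on the minus strand in an intron of the noncoding Gm15884. Mir141 also overlaps an exon of the unclassified transcript Gm29008, and the nearest protein-coding gene is the prohibitin gene Phb2 on the opposite strand. Mir182 (chromosome 6, 30165918 to 30165992), Mir96 (30169446 to 30169551) and Mir183 (30169668 to 30169737) span 3820 bases of the minus strand between genes, with 3453 bases between Mir182 and Mir96 and only 116 between Mir96 and Mir183. Mir205 (chromosome 1, 193507463 to 193507530, minus strand) overlaps an exon of the long noncoding RNA 4631405K08Rik. Mir203 (chromosome 12, 112130880 to 112130955, plus strand) is the only member on a plus strand and lies 3321 bases from Aspg, with no gene overlapping it.

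Reads on the own strand of a gene numbered 5237062 in replicate 1 and 3026501 in replicate 2, and levels are counts per 1000000 of these (CPM). The heart-defining microRNAs within myosin genes were present at 1356 and 641 CPM (Mir208a), 329 and 288 CPM (Mir208b) and 3482 and 2486 CPM (Mir499) in replicates 1 and 2. Mir1a-1, Mir1a-2, Mir133a-1 and Mir133a-2, which have near-identical copies, had at most 110 reads in a library. Bracketed intervals are exact 95% Clopper-Pearson intervals, and means carry the SD of n = 2. Reads have no molecular identifiers, so intervals and the floor of 3 reads set for a count of 0 (0.573 CPM in replicate 1 and 0.991 CPM in replicate 2) cover counting error only. The mature strands are 22 to 25 bases long, and CPM was not divided by length.

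Together the 10 genes had 3843 reads in replicate 1 and 1351 in replicate 2, that is 734 CPM (711 to 757) and 446 CPM (423 to 471), a mean of 590 ± 203 CPM. Mir200c alone held 51.6% (50.01 to 53.2) of these reads in replicate 1 and 66.5% (64.0 to 69.1) in replicate 2. Detection required 10 or more reads in each library, which 7 of the 10 members and 335 of all 2202 genes (15.2%) reached. Mir200a and Mir205 passed the limit in replicate 1 only, and Mir96 in neither.

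**Figure D1:**
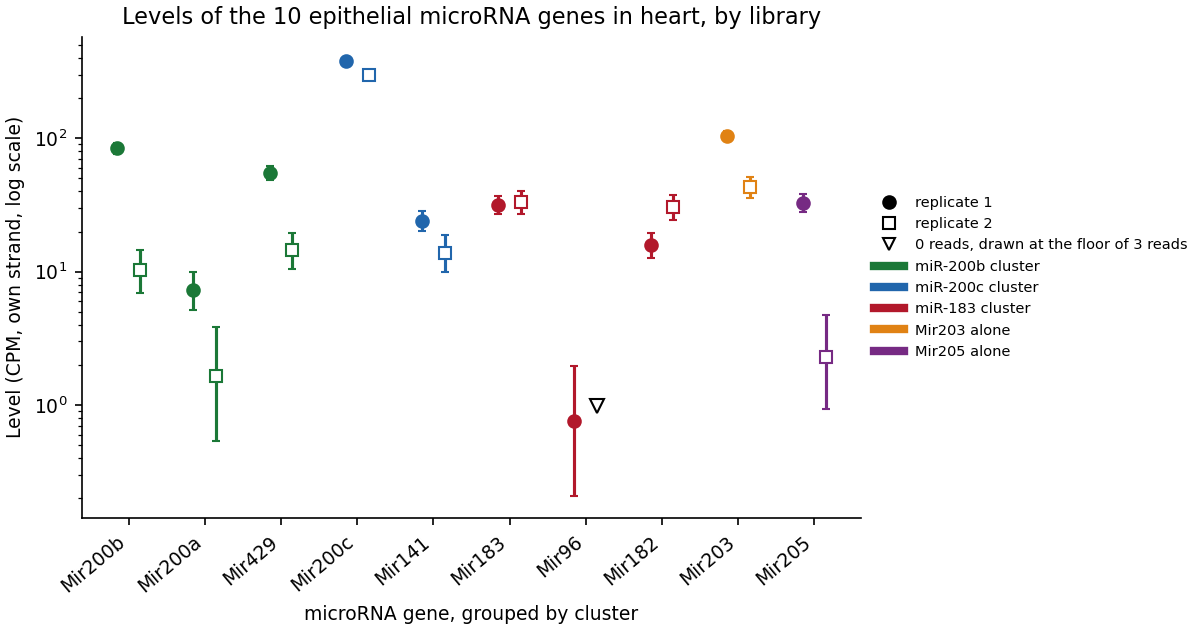
Level of each member in CPM (log axis) in replicate 1 (filled circles) and replicate 2 (open squares), coloured by cluster, with exact 95% Clopper-Pearson intervals for counting error. Mir200c is highest in both libraries at 379 and 297 CPM, and the replicate 2 value of Mir96, with 0 reads, is drawn at the floor of 0.991 CPM.

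The cluster of Mir200c and Mir141 was the most abundant locus, with 403 CPM (386 to 420) in replicate 1 and 311 CPM (291 to 331) in replicate 2. Mir200c had 1983 reads, or 379 CPM (362 to 396), in replicate 1 and 899 reads, or 297 CPM (278 to 317), in replicate 2, a mean of 338 ± 57.7 CPM. Mir141 of the same locus had 126 reads (24.1 CPM, 20.0 to 28.6) in replicate 1 and 42 reads (13.9 CPM, 10.002 to 18.8) in replicate 2. Mir200c thus had 15.7 times the reads of Mir141 in replicate 1 (13.1 to 19.0) and 21.4 times in replicate 2 (15.7 to 29.9), and these intervals overlap.

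The cluster of Mir200b, Mir200a and Mir429 reached 146 CPM (136 to 157) in replicate 1 and 26.4 CPM (20.96 to 32.9) in replicate 2. Mir200b had 441 reads, or 84.2 CPM (76.5 to 92.4), in replicate 1 and 31 reads, or 10.2 CPM (6.96 to 14.5), in replicate 2. Its mean of 47.2 CPM had an SD of 52.3, larger than the mean itself. Mir429 had 288 reads (55.0 CPM, 48.8 to 61.7) in replicate 1 and 44 reads (14.5 CPM, 10.6 to 19.5) in replicate 2. Mir200a, between them on the chromosome, was the lowest of the cluster with 38 reads (7.26 CPM, 5.13 to 9.96) in replicate 1 and 5 reads (1.65 CPM, 0.536 to 3.86) in replicate 2. Mir200b was above Mir429 in replicate 1, by a ratio of 1.53 (1.32 to 1.78), and not in replicate 2, where the ratio was 0.705 (0.430 to 1.14).

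Summed by seed, the miR-200 family came almost wholly from genes with the AAUACUG seed. Mir200b, Mir200c and Mir429 held 94.3% (93.4 to 95.1) of 2876 family reads in replicate 1 and 95.4% (93.9 to 96.6) of 1021 in replicate 2. Mir200a and Mir141, with the AACACUG seed, held the other 5.70% (4.88 to 6.61) and 4.60% (3.40 to 6.07). At each locus the AACACUG gene was the lowest member in both libraries. Between the loci, Mir200c had 4.50 times the reads of Mir200b in replicate 1 (4.05 to 5.00) and 29.0 times in replicate 2 (20.3 to 42.9).

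The miR-183 cluster had 48.1 CPM (42.4 to 54.4) in replicate 1 and 63.8 CPM (55.1 to 73.4) in replicate 2, the only locus of the 5 with the lower level in replicate 1. Mir183 had 165 reads (31.5 CPM, 26.9 to 36.7) in replicate 1 and 101 reads (33.4 CPM, 27.2 to 40.5) in replicate 2, and these intervals overlap. Mir182 had 83 reads (15.8 CPM, 12.6 to 19.6) in replicate 1 and 92 reads (30.4 CPM, 24.5 to 37.3) in replicate 2. Mir96, whose seed mutations cause hearing loss in mice, lies between them and had 4 reads (0.764 CPM) in replicate 1 and 0 in replicate 2. These counts are 1.59% (0.434 to 4.01) of the cluster's 252 reads in replicate 1 and 0 of 193 in replicate 2, where the exact interval reaches 1.89%. Mir183 exceeded Mir182 by a ratio of 1.99 (1.52 to 2.62) in replicate 1, and the ratio in replicate 2 was 1.10 (0.819 to 1.47).

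**Figure D2:**
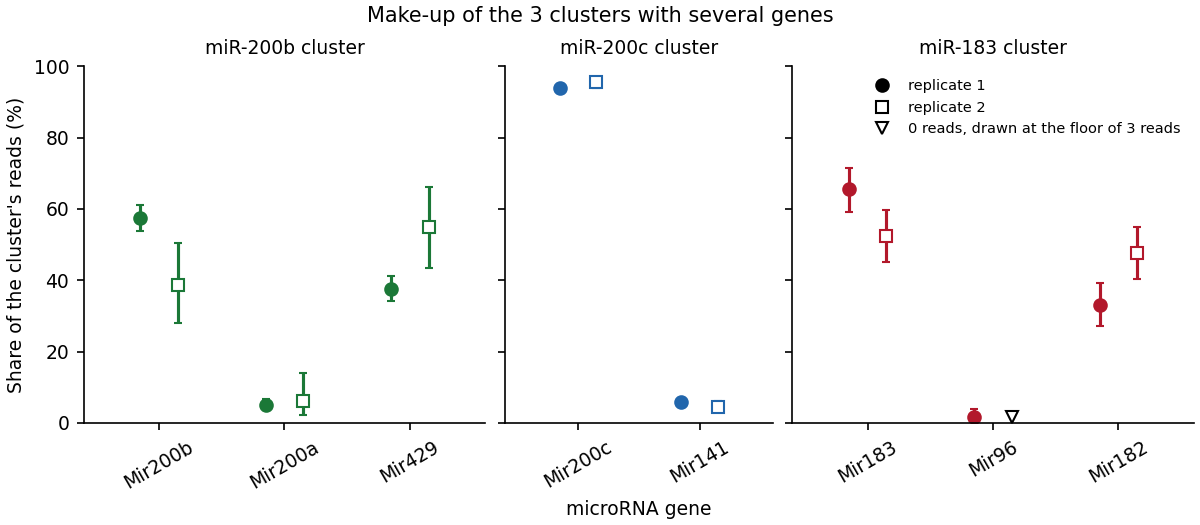
Share of each cluster's reads (%) held by each of its genes in replicate 1 (filled circles) and replicate 2 (open squares), with exact 95% Clopper-Pearson intervals. Mir200c holds 94.0% and 95.5% of its locus, and Mir200a and Mir96 are the smallest part of theirs in both libraries.

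Unequal levels along a cluster were also common elsewhere in these libraries. Over 101 other pairs of neighbouring detected genes on the same strand within 10000 bases, the higher gene had a median of 5.98 times the level of the lower (quartiles 2.22 and 15.7). These pairs include genes with near-identical copies, such as Mir1a-2 and Mir133a-1, whereas no member was marked uncertain for such a copy by shared runs of 20 bases. Reads mapped to several places are not in the counts, and how far copies widen the median was not tested. Mir200c exceeded Mir141 17.8-fold in mean level, Mir200b exceeded Mir429 1.36-fold and Mir183 exceeded Mir182 1.40-fold. Mir200a (mean 4.45 CPM) and Mir96 (mean 0.382 CPM) were not detected and so were left out, though each lies between the genes of a pair. The library differences of the 2 genes of a pair, on the log2 scale, lay a median of 0.66 apart (quartiles 0.32 and 1.01) over the 101 pairs. They lay 0.43 apart for Mir200c and Mir141, 0.85 for Mir183 and Mir182, and 1.11 for Mir200b and Mir429. No test was made on these pairs.

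The genes of stratified epithelia, which have no cluster partner among the members, stood at different levels. Mir203, which represses p63 in skin as cells leave the basal layer, had 543 reads (104 CPM, 95.1 to 113) in replicate 1 and 130 reads (43.0 CPM, 35.9 to 51.0) in replicate 2. Its mean of 73.3 ± 42.9 CPM ranked 168 among the 335 detected genes, which is the median gene. Mir205 had 172 reads (32.8 CPM, 28.1 to 38.1) in replicate 1 and 7 reads (2.31 CPM, 0.930 to 4.77) in replicate 2. Mir203 exceeded Mir205 by a ratio of 3.16 (2.65 to 3.77) in replicate 1 and of 18.6 (8.76 to 47.1) in replicate 2.

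By mean level the order was Mir200c, Mir203, Mir200b, Mir429, Mir183, Mir182, Mir141, Mir205, Mir200a and Mir96. Mir200c was first in both libraries, with intervals clear of every other member. Mir203 was second in both, but its interval in replicate 2 overlaps those of Mir183 and Mir182. Over its neighbour Mir200b it was higher in both, with intervals apart. These were 95.1 to 113 against 76.5 to 92.4 CPM in replicate 1 and 35.9 to 51.0 against 6.96 to 14.5 CPM in replicate 2. From Mir200b to Mir200a no neighbours in the order had intervals apart in the same direction in both libraries. Mir200b was exceeded by Mir200c and Mir203 in both libraries, and by Mir183 and Mir182 as well in replicate 2, with intervals apart. Mir429 and Mir141 were also higher than Mir200b in replicate 2, but their intervals overlap its own. Mir96 was lowest in both libraries. Among all genes the mean level of Mir200c ranked 103, the ranks of Mir200b to Mir205 ran from 190 to 241, and Mir200a ranked 320.

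**Figure D3:**
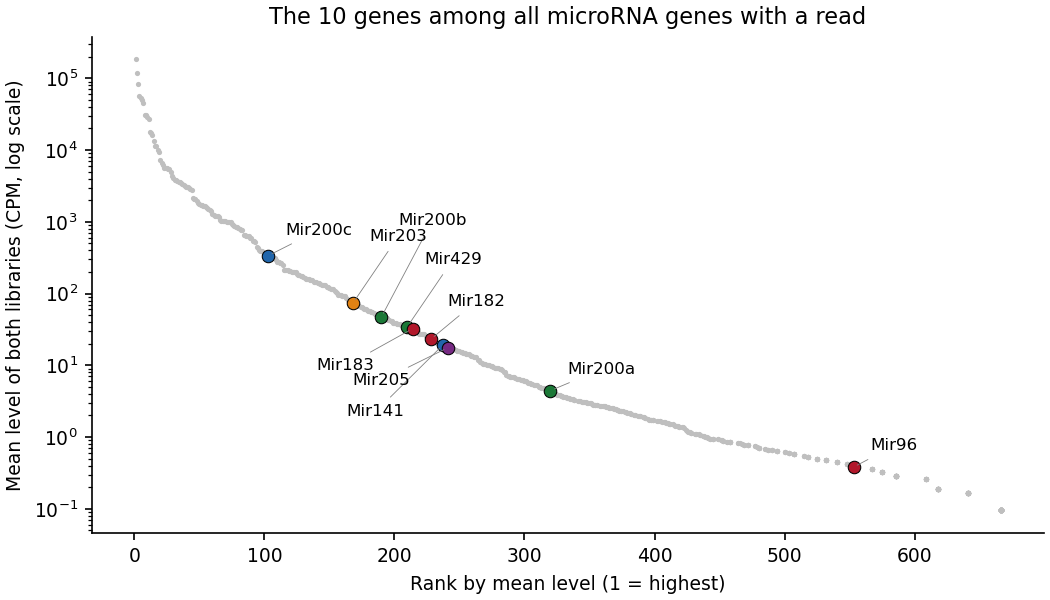
Mean level of both libraries in CPM (log axis) against rank for all microRNA genes with a read (grey) and the 10 members (coloured by cluster as in the plot of levels). Mir200c ranks 103, 7 members lie between ranks 168 and 241, and Mir96 ranks 553.

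The libraries were then compared gene by gene, replicate 1 over replicate 2, to ask whether the members differed more than counting error allows. An exact two-sided binomial test on TMM-scaled library sizes, with p-values Benjamini-Hochberg adjusted over all 430 genes with at least 10 reads in sum and a threshold of 0.05, was applied. It compares these 2 libraries and no conditions. Of all genes tested, 55.3% were called, 27.9% as higher and 27.4% as lower in replicate 1, so a call by itself was common. Of the 9 members tested, 7 were called higher, Mir182 was called lower and Mir183 was not called; Mir96 had too few reads. The median log2 difference was 1.13 over the 9 members and -0.05 over all 430 genes. TMM scaling moved every log2 difference by -0.13 relative to total counts.

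The widest differences among the members were those of Mir205 and of the Mir200b locus. Mir205 (172 reads in replicate 1 against 7 in replicate 2) was higher by 12.1-fold in replicate 1 (log2 3.60, counting interval 2.62 to 5.03, exact binomial test adjusted p = 1.54e-22), the third highest log2 difference of the 430 genes. Mir200b was higher by 7.38-fold (log2 2.88, 2.38 to 3.48, adjusted p = 2.50e-46), the sixth highest. Mir200a was higher by 3.69-fold (log2 1.88, 0.65 to 3.70) and Mir429 by 3.41-fold (log2 1.77, 1.32 to 2.28), so all 3 genes of that locus were called higher. Mir203 was higher by 2.19-fold (log2 1.13, 0.86 to 1.42).

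The remaining members differed less between libraries. Mir141 was higher in replicate 1 by 1.57-fold (log2 0.65, 0.15 to 1.20, exact binomial test adjusted p = 0.0203) and Mir200c, the most abundant member, by 1.16-fold (log2 0.22, 0.10 to 0.33). Mir183 had a log2 difference of -0.22 (-0.58 to 0.15, adjusted p = 0.362). Mir182 was lower in replicate 1 by 2.10-fold (log2 -1.07, -1.52 to -0.63). Past 2-fold lay 5 members higher in replicate 1 and Mir182 lower, against 15.8% and 12.8% of all genes; Mir182 was within 2-fold under total counts or DESeq2 size factors.

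**Figure D4:**
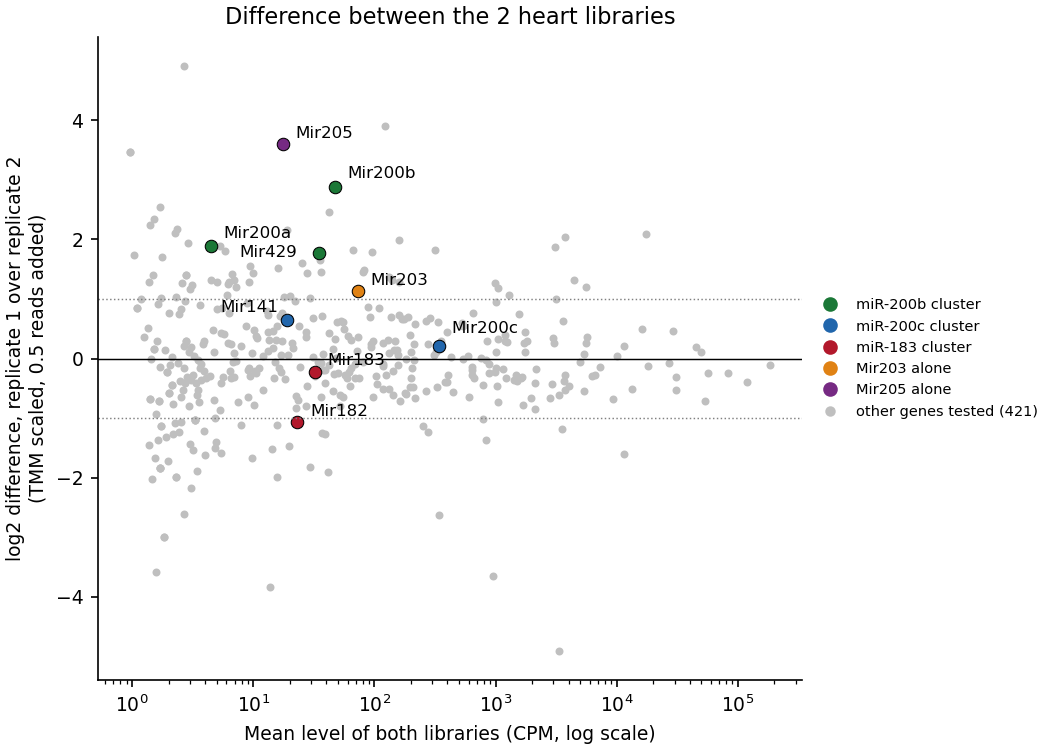
Log2 difference between libraries (replicate 1 over replicate 2, TMM scaled, 0.5 reads added) against mean level in CPM (log axis) for the 9 members tested (coloured) and the 421 other genes (grey); dotted lines mark 2-fold. Mir205 and Mir200b lie near the upper edge, and Mir200c, Mir141 and Mir183 lie within 2-fold.

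No member passed a test that takes the spread of these libraries over all genes into account. The common biological coefficient of variation estimated by edgeR was 0.424, and edgeR's exact test at that dispersion called 0 of the 9 members. In that test 2 members (Mir205 and Mir200b) had an unadjusted p under 0.05, against 24 of all 430 genes. The adjusted p was 0.0598 for Mir205 and 0.186 for Mir200b, and 0.93% of all genes were called. The dispersion was estimated from the same 2 libraries, which count as replicates in it.

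Other microRNAs known from epithelia were set beside the members. Of 11 such genes, 8 were detected, against 335 of all 2202 genes (15.2%). Over all 430 genes tested, 27.9% were called higher in replicate 1 and 27.4% lower, with a median log2 difference of -0.05. Of the 11 genes 9 were tested, of which 5 were called higher, 1 lower and 3 not called, with a median of 1.28. Those called higher were Mir34c (1013 reads in replicate 1 against 207 in replicate 2), Mir34b (28 against 0, at least 4.91-fold higher with the floor of 3 reads) and Mir449a (1367 against 182), all known from multiciliated cells, and Mir375 (381 against 36), known from endocrine and other secretory cells, and Mir192 (71 against 15). Mir215, like Mir192 a microRNA of gut and kidney, was called lower (203 reads against 156, log2 -0.55). Mir31, a microRNA of skin among other tissues, had the highest level of the list at 634 CPM in replicate 1 and 558 CPM in replicate 2 and was not called (log2 0.05, -0.04 to 0.13). Mir194-1 and Mir194-2, which share 20 bases, were not called, Mir449b had 3 reads and 0, and Mir449c had none. At the estimated dispersion edgeR's exact test called 0 of the 9 genes tested, the lowest adjusted p being 0.0925 for Mir34b. In that test 3 of them (Mir34b, Mir375 and Mir449a) had an unadjusted p under 0.05, against 24 of all 430 genes.

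**Figure D5:**
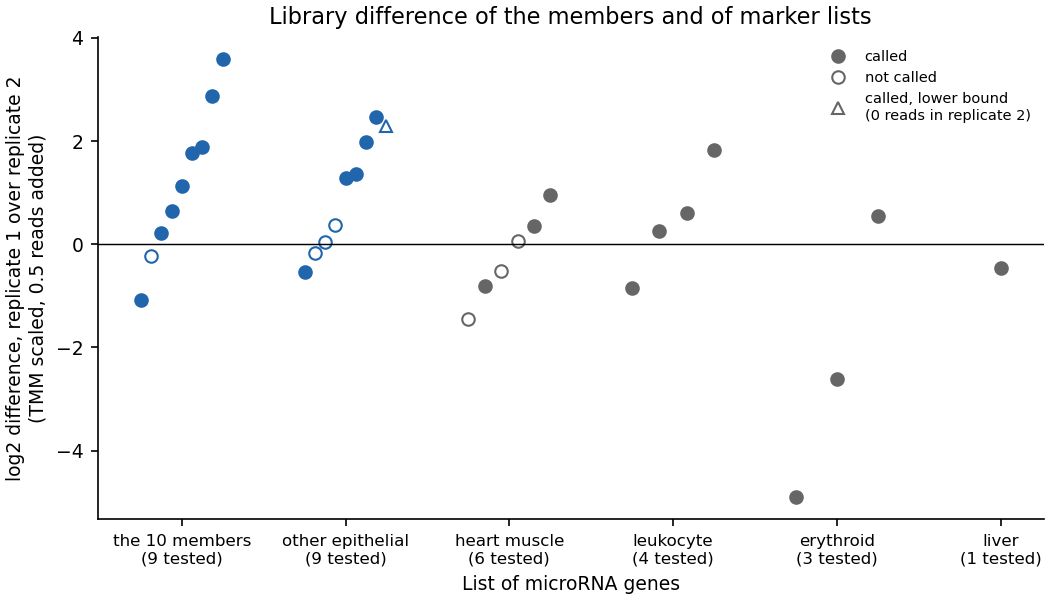
Log2 difference between libraries (replicate 1 over replicate 2, TMM scaled, 0.5 reads added) of each tested member and of each tested gene of 5 marker lists; filled points were called, open circles were not, and the triangle is the lower bound of Mir34b. The members reach from -1.07 for Mir182 to 3.60 for Mir205, and the erythroid Mir451a lies lowest at -4.91.

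Markers of other cell types were also called between the libraries. Of all 430 genes tested, 55.3% were called, 27.9% as higher and 27.4% as lower in replicate 1. The 3 erythroid genes held 995 CPM in replicate 1 and 7382 CPM in replicate 2 in all, with Mir451a at 234 and 6393 CPM and Mir144 at 103 and 579 CPM called lower, while Mir486, which shares 20 bases with another hairpin and is uncertain for that, was called higher (658 and 410 CPM). The 4 leukocyte genes held 2489 CPM in replicate 1 and 3142 CPM in replicate 2, with Mir223, Mir150 and Mir142 called higher and Mir155 lower. The 7 heart muscle genes held 5192 CPM in replicate 1 and 3454 CPM in replicate 2, of 6 tested 2 being called higher, 1 lower and 3 not. The liver microRNA Mir122 had 55.9 CPM in replicate 1 and 70.4 CPM in replicate 2 and was called lower. Of 6 neuronal genes, all of which have near-identical copies, 5 were at 0 in both libraries. These calls are those of the binomial test; at the estimated dispersion edgeR's exact test called Mir451a alone among the tested genes of these marker lists (adjusted p = 0.00104). The part of other cell types, of blood or of depth in the differences of the members was not tested, and the pool that a label of replicate 1 may describe cannot be told apart from the library.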

How the data were processed

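The deposited tables give read counts per microRNA gene for 1 library each, not normalized by the authors. Per the file headers of the readmes, they were made on mm10 with GENCODE M21, by tools not given in the sources used here. Of the 3 columns of counts, the own-strand column was used, told from its values. The 4 summary lines stayed out of library sizes. They held 13.4% and 13.3% unmapped reads, 41.1% and 39.9% mapped to several places and 4.33% and 4.30% outside genes.

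Genes were matched by GENCODE M21 gene name. TMM factors, the common dispersion (intercept only) and edgeR's exact test came from edgeR 4.0.16, and size factors from DESeq2 1.42.0, in R 4.3.3. A fit with each of the 2 libraries as its own group has no residual degrees of freedom, so libraries were compared by the exact binomial test, which rests on counting error. It was tested on simulated counts with counting error only, so its behaviour under spread between animals was not tested. Log2 differences had 0.5 reads added. Other steps ran in Python 3.11.15 with scipy 1.17.1, numpy 2.4.6, pandas 2.3.3 and matplotlib 3.10.9.

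All 10 members are named, and of the other lists only genes beside a result. The members, lists and tests were chosen with earlier results of these data known. Alternatives were other scalings, no filter, unstranded reads, other read minimums, all reads as denominator, 10 reads added, edgeR's exact test and each library alone.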

Additional observations from a re-analysis of the deposited data

Results flagged for a closer look

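Mir203 had 8 reads on the strand opposite to the gene in replicate 1, above the 3 that a count of 0 allows, in a column that no comparison above uses. They were 1.45% (0.629 to 2.84) of its 551 reads on both strands in replicate 1, and 2 of 132 (1.52%, 0.184 to 5.37) in replicate 2. Over all genes, reads opposite to a gene were 20.6% of those on both strands in replicate 1 and 21.8% in replicate 2. That share can include own-strand reads of another gene overlapping on the opposite strand, and how many was not tested. No gene overlaps Mir203, so the share is not a background level for it. Among the other members, Mir200a alone had opposite-strand reads, 3 of 41 in replicate 1 and 2 of 7 in replicate 2.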

How the results depend on the processing

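The binomial test called 8 members with TMM scaling, DESeq2 size factors, total counts, no filter and unstranded reads, and the log2 difference of each of the 9 members tested kept its direction under all of them. Of all genes it called 238 of 430 with TMM scaling and 240 of 430 with DESeq2 size factors or total counts. Without a filter it called 234 of 723, and with unstranded reads 216 of 403. With edgeR's exact test at a coefficient of variation of 0.1, 6 members were called, Mir200c and Mir141 losing the call, against 123 of all 430 genes. At the dispersion estimated from the libraries 0 members were called, against 4 of all 430 genes. Past 2-fold lay 6 members, against 123 of all 430 genes. With DESeq2 size factors, total counts or 10 reads added, 5 members lay past it, against 120, 117 and 81 of all 430 genes. Of the 10 members 7 were detected, 9 with a minimum of 5 reads and 4 with 50 (Mir200c, Mir183, Mir182 and Mir203). Of all 2202 genes 335 were detected, 391 with a minimum of 5 reads and 231 with 50. The members' summed level of 590 CPM became 807 CPM with unstranded reads and 246 with all reads as the denominator. With either library left out the summed level was 446 to 734 CPM. Mir200c, with 0 reads on the opposite strand, also went from 338 to 461 CPM with unstranded reads, as the total of gene reads is smaller there. Mir205 in replicate 2 rests on 7 reads and Mir200a on 5, which widens their counting intervals. No paired analysis was possible because there was only 1 group.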
